A study of Mus musculus and Rattus norvegicus with 30 samples.

Results

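The genes of the mitochondrial genome were described in rat cardiomyocytes and in mouse hearts. The members were the rat genes placed on the mitochondrial chromosome (MT), 37 of the 32545 genes in the rat table, and the mouse genes whose symbols start with mt-, 37 of the 54307 genes in the mouse tables. In each species they comprise 13 mRNAs, 2 rRNAs and 22 tRNAs, so the whole gene content of the molecule was covered. The study asked what agonists of the estrogen-related receptors (ERRs) do in cardiomyocytes and in the loaded heart. ERRs are nuclear receptors known for driving genes of energy metabolism.

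Neonatal rat ventricular myocytes (NRVM), isolated from pups on postnatal day 3, were profiled in 4 groups of 3 libraries. They were siRNA against ERRalpha and ERRgamma with 915 (10 µM for 24 h), the same siRNA with vehicle (DMSO), scramble siRNA with 915, and scramble siRNA with vehicle. Transfection typically used 25 nM siRNA. All 4 groups were therefore transfected, and the cultures had been preplated to remove fibroblasts and held in bromodeoxyuridine. Left ventricles of wild-type mice formed the other 4 groups: TAC with 332 (5 libraries), TAC with vehicle (5), sham with 332 (5) and sham with vehicle (3). TAC, constriction of the transverse aorta, puts a pressure load on the heart, and 332 was injected intraperitoneally for 6 weeks after surgery. The labels do not say whether replicate libraries came from separate cultures, so the p-values in rat cells measure the spread between these libraries.

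The mitochondrial genome is a small circular DNA that is transcribed from both strands into long precursors, which are cut at the tRNAs that lie between the other genes. Its mRNAs encode core subunits of complexes I, III and IV of the respiratory chain and of ATP synthase (complex V). Its rRNAs build the mitochondrial ribosome. All other proteins of these complexes, and all proteins that copy, transcribe and process the genome, are made from nuclear genes. Heart muscle carries very large amounts of these transcripts because its ATP comes mainly from respiration.

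Features of the sequences bear on how the transcripts were counted. First, some mitochondrial mRNAs carry no complete stop codon of their own until a poly(A) tail is added, and the rat libraries were made from RNA bound to poly-T beads. The ends of 4 mouse genes (GENCODE M21 on GRCm38, gene strand) show both kinds of ending. Capitals mark a complete stop codon in the line for mt-Co1 and the single base left after the last sense codon in the other 3 lines.
mt-Co1: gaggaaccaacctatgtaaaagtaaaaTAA
mt-Co3: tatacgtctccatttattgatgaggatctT
mt-Nd4: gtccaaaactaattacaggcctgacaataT
mt-Cytb: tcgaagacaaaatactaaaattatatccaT

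Second, neighbouring genes overlap. mt-Atp8, which encodes a small complex V subunit, is 204 bases long (GRCm38, mitochondrial chromosome, 7766 to 7969, plus strand). Its last 43 bases, in capitals, are also the first bases of mt-Atp6, so a fragment over them lies in both genes.
mt-Atp8: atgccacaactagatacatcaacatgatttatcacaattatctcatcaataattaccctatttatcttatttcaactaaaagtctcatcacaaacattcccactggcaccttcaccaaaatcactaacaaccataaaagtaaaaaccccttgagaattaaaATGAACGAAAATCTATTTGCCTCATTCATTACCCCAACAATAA
mt-Nd4l and mt-Nd4 share 7 bases, shown in capitals at the end of the shorter gene.
mt-Nd4l: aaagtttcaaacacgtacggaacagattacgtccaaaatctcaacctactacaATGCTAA
The same pairs overlapped by the same numbers of bases in the rat annotation (rn6). In both species the gene for the complex I subunit ND6, which alone among the mRNAs lies on the other strand, also overlaps the end of the gene for ND5. The overlap is 23 bases in rat, where Mt-nd6 spans 13543 to 14061.

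Finally, the mouse nuclear genome holds copies of mitochondrial genes that match them almost letter for letter over long stretches. A block of 7 pseudogenes on chromosome 1 (GRCm38, 24611535 to 24616197, minus strand) matches mt-Co1, mt-Co2, mt-Atp6, mt-Co3, mt-Nd3, mt-Nd4l and mt-Nd4. The copy of mt-Nd3 differs from its gene by 1 base over 345 aligned bases. The copy of mt-Co1 differs by 1 base over the 483 bases that align (1063 to 1545 of the gene), and its first bases lie outside that alignment. These substitutions are counted from the first base of the mitochondrial gene and written with the mitochondrial base first: T3C for mt-Nd3 and A1066T for mt-Co1. The windows below hold those bases in capitals.
mt-Nd3: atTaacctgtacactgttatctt
Gm28438: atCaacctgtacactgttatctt
mt-Co1: ggaAttgttttatccaactcatcc
Gm29216: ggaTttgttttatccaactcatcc
The other 5 copies were identical to their gene over the whole of the copy, for example all 681 bases of Gm28661, the copy of mt-Co2. A read from such a stretch cannot be placed on letters alone, so the split of reads between gene and copy was treated as unreliable, and mouse values are also given with each copy's counts added to its gene. This setting was chosen after the data were seen. The rat genome was not searched for such copies.

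The rat libraries held 12013379 to 18315341 counts and the mouse libraries 11375894 to 16599899. Levels are in CPM, a gene's counts relative to the total of its library on a common scale, with library totals adjusted by TMM. Calls are at an adjusted p under 0.05 in edgeR's quasi-likelihood test, adjusted by Benjamini-Hochberg over all 15181 rat or 14047 mouse genes that passed the filter on low counts. All 13 mRNAs and both rRNAs of each species passed it. Fold changes are log2 with the standard error (SE) in the form ± SE. The siRNA targets were low where the labels say so: Esrra stood at 12.7 to 21.9 CPM in the 6 knockdown libraries against 169 to 229 CPM in the 6 scramble libraries, and Esrrg at 16.1 to 25.1 CPM in knockdown libraries against 130 to 302 CPM in scramble libraries.

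Mitochondrial transcripts took a small part of the rat libraries and a large part of the mouse libraries. In rat cells all 37 genes together held 6.39% ± 0.45 of counts in knockdown cells with 915, 4.87% ± 0.40 in knockdown cells with vehicle, 7.65% ± 0.13 in scramble cells with 915 and 6.13% ± 0.54 in scramble cells with vehicle (SD, n = 3 each). In mouse hearts the share was 29.1% ± 3.8 in TAC with 332, 30.1% ± 5.1 in TAC with vehicle and 33.0% ± 4.2 in sham with 332 (SD, n = 5 each), against 35.7% ± 0.35 in sham with vehicle (SD, n = 3). On sequencing lanes 3 and 4 alone, which hold 3 libraries of each group, it was 31.3% ± 2.4 in TAC with 332, 33.7% ± 0.99 in TAC with vehicle, 36.0% ± 0.45 in sham with 332 and 35.7% ± 0.35 in sham with vehicle (SD, n = 3 each). With the nuclear copies added, the mouse shares ran from 26.6% to 44.8% per library.

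Per kilobase of gene, the subunits of complex IV led in rat cells. Over the 12 libraries the median level was 15803 CPM per kb for Mt-co1, the catalytic subunit of complex IV, 10516 for Mt-cox3, and 5632 for Mt-co2. Mt-atp6, the proton channel subunit of complex V, stood at 6897, and Mt-cytb, the only complex III subunit made in the mitochondrion, at 4745 CPM per kb. The complex I subunits ran lower, in the order Mt-nd2 (4061), Mt-nd1 (2966), Mt-nd3 (2156), Mt-nd4l (2022), Mt-nd5 (1490), Mt-nd6 (1166) and Mt-nd4 (426 CPM per kb). Mt-atp8 was lowest at 97.6 CPM per kb. The rat rRNAs, named only by identifier in the table, stood at 1334 CPM per kb for AY172581.9 (958 bases, MT 68 to 1025) and 668 for AY172581.24 (1571 bases, MT 1094 to 2664).

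The mouse order shared its first gene and differed lower down. mt-Co1 led at 69350 CPM per kb and mt-Nd6 was lowest at 392. With copies added, mt-Co1 (77295), mt-Co2 (57152), mt-Atp6 (55329) and mt-Co3 (53846 CPM per kb) were followed by mt-Cytb (34246). mt-Atp8 stood at 27140 CPM per kb, level with mt-Nd1 at 26370, whereas its rat counterpart was last of the rat mRNAs. The rat and mouse counts came from different counting programs, which treat shared bases and multiply mapped reads in their own ways, and the part of the counting in these differences was not tested.

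Knockdown of both receptors in vehicle-treated cells lowered the mitochondrial mRNAs of every complex. Of 13 mRNAs, 12 fell and 0 rose, and both rRNAs fell; over all genes tested, 12.7% were called lower and 7.75% higher. The median log2 fold change of the mRNAs was -0.48, against 0.01 over all genes. By complex, 6 of 7 complex I mRNAs fell, as did the 1 of complex III, all 3 of complex IV and both of complex V.

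Mt-cytb had the smallest p-value of the 13. It stood at 4059, 3684 and 4141 CPM in knockdown cells with vehicle, against 6028, 5405 and 6668 CPM in scramble cells with vehicle. The 3 knockdown libraries lay below all 3 scramble libraries, with a log2 fold change of -0.61 ± 0.07 (edgeR adjusted p = 3.77e-07). Mt-co1 held 19735, 18101 and 20235 CPM in knockdown cells against 25558, 23746 and 27732 CPM in scramble cells, again without overlap (-0.41 ± 0.07, edgeR adjusted p = 6.23e-05). Mt-co2, which takes electrons from cytochrome c into complex IV, fell by 0.48 ± 0.07, and Mt-cox3 fell by 0.42 ± 0.07.

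Of complex I, Mt-nd5 showed the largest fall, with 1985, 1648 and 1968 CPM in knockdown cells against 2727, 2725 and 3371 CPM in scramble cells (-0.66 ± 0.10, edgeR adjusted p = 0.000615). Mt-nd6 had 439, 373 and 460 CPM in knockdown cells against 585, 572 and 687 CPM in scramble cells (-0.54 ± 0.09). The rat libraries were unstranded, so reads of Mt-nd6 cannot be told from reads antisense to it that come from the other strand. The exception among the mRNAs was Mt-nd4, a core subunit of the proton-pumping arm of complex I. It held 578, 345 and 662 CPM in knockdown cells against 517, 573 and 752 CPM in scramble cells (-0.22 ± 0.24, edgeR adjusted p = 0.619). Its groups overlapped and its SE was more than any other mRNA's in this comparison. The complex V pair had fold changes of -0.30 ± 0.08 for Mt-atp6 and -0.41 ± 0.11 for Mt-atp8, and Mt-atp8 was counted at only 16.5 to 18.1 CPM in these knockdown cells. The calls on both were lost without S_Veh replicate 3.

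**Figure D1:**
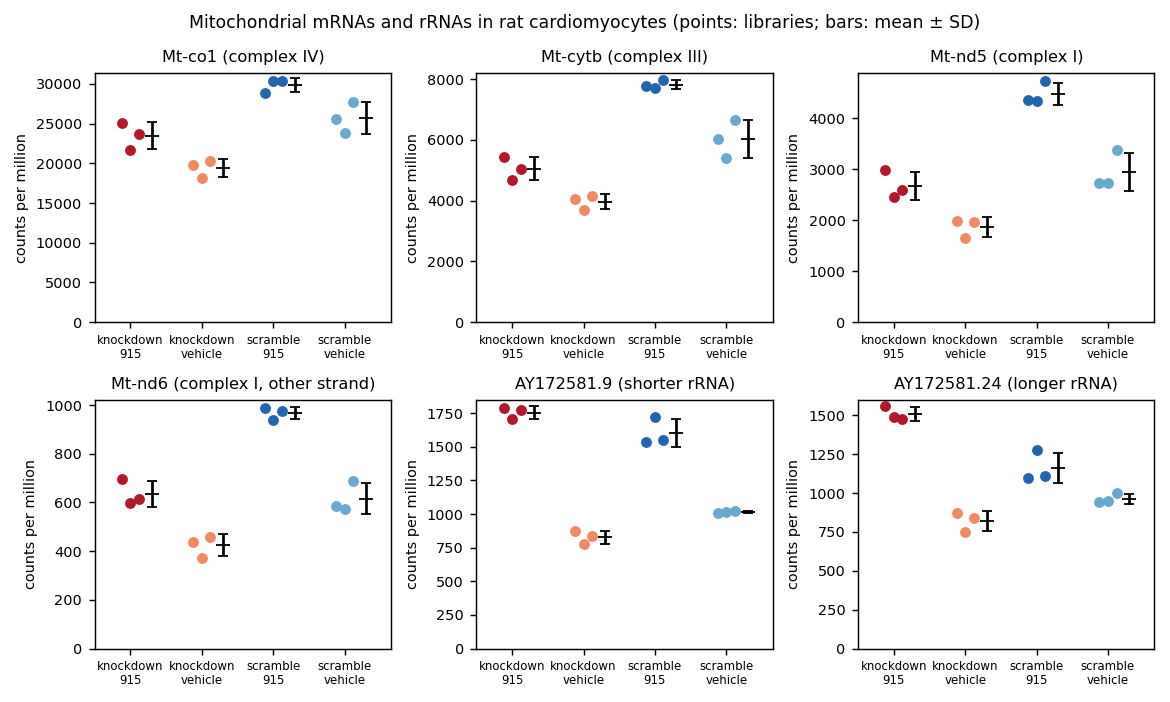
Levels of 4 mRNAs and the 2 rRNAs in rat cells, in CPM on axes that start at 0; each point is 1 library and bars give the mean ± SD of 3. The mRNAs are highest in scramble cells with 915 and lowest in knockdown cells with vehicle, whereas both rRNAs are on average highest in knockdown cells with 915, at 1703 to 1788 CPM for AY172581.9.

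In 915-treated cells the knockdown lowered all 13 mRNAs, while the rRNAs did not follow them. Over all genes tested, 17.7% were called lower and 16.2% higher in this contrast, with a median of 0.03. The mRNA median was -0.51. Mt-cytb stood at 5442, 4680 and 5036 CPM in knockdown cells with 915, against 7760, 7708 and 7981 CPM in scramble cells with 915, so the groups were far apart (-0.63 ± 0.07, edgeR adjusted p = 1.25e-07). Mt-nd5 held 2989, 2458 and 2603 CPM in knockdown cells against 4359, 4350 and 4733 CPM in scramble cells (-0.74 ± 0.10).

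Mt-nd4l, the smallest complex I subunit of the genome, fell by 0.72 ± 0.10 and its neighbour Mt-nd4 by 0.98 ± 0.25. Mt-nd4 had 538, 596 and 487 CPM in knockdown cells with 915 against 1117, 1154 and 918 CPM in scramble cells with 915. The call on Mt-nd4 was lost without DKD_915 replicate 3, and those on Mt-nd2 and Mt-atp6 without DKD_915 replicate 2 or 3. Mt-nd6 fell by 0.61 ± 0.08 and Mt-co2 by 0.44 ± 0.07. The rRNA AY172581.24 went the other way, with 1561, 1490 and 1476 CPM in knockdown cells against 1098, 1276 and 1110 CPM in scramble cells. Its groups did not overlap, and it rose by 0.38 ± 0.06 (edgeR adjusted p = 2.15e-05). AY172581.9 had a log2 fold change of 0.13 ± 0.05 and missed the threshold (edgeR adjusted p = 0.0608).

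Treatment with 915 raised most mitochondrial mRNAs in scramble cells. Of 13 mRNAs 11 rose and 0 fell, and both rRNAs rose, where over all genes 21.5% were called higher and 20.6% lower. The mRNA median was 0.37 and that of all genes 0.01. The exceptions were Mt-nd1 (0.20 ± 0.09, edgeR adjusted p = 0.106) and Mt-atp8 (0.11 ± 0.11, edgeR adjusted p = 0.448).

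Mt-nd6 had the smallest p-value of the mRNAs, with 987, 940 and 975 CPM in scramble cells with 915 against 585, 572 and 687 CPM in scramble cells with vehicle (0.65 ± 0.09, edgeR adjusted p = 2.61e-05). Mt-cox3 held 10861, 10957 and 10864 CPM with 915 against 8093, 7262 and 8860 CPM with vehicle (0.43 ± 0.07). The 915 libraries of both genes lay above all vehicle libraries. Mt-nd5, with 4359, 4350 and 4733 CPM with 915 against 2727, 2725 and 3371 CPM with vehicle, rose by 0.61 ± 0.10, and Mt-cytb by 0.37 ± 0.07. The changes of Mt-co1 (0.22 ± 0.07) and of Mt-atp6 and Mt-nd2 (0.26 each, SE 0.08 and 0.09) were the smallest among the mRNAs that rose. Over the fits that left out 1 of the 6 libraries Mt-nd2 ranged from 0.21 to 0.36, and its call was lost without any 1 library but S_Veh replicate 3. The call on Mt-co1 was lost without S_915 replicate 3 or S_Veh replicate 2, and that on Mt-atp6 without S_Veh replicate 2. Mt-nd4, called in scramble cells as well, ranged from 0.68 to 0.96 in these fits and lost its call without S_915 replicate 1 or 2 or S_Veh replicate 1 or 2.

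In knockdown cells 915 raised 9 of 13 mRNAs and both rRNAs, and 0 members fell among the mRNAs and rRNAs. Here 18.1% of all genes were called higher and 17.6% lower, the median of all genes was -0.0014 and that of the mRNAs 0.31. Mt-cox3 had 8741, 7707 and 8396 CPM in knockdown cells with 915 against 6227, 5329 and 6511 CPM in knockdown cells with vehicle (0.46 ± 0.07, edgeR adjusted p = 4.41e-05). Mt-nd6 had 695, 597 and 612 CPM with 915 against 439, 373 and 460 CPM with vehicle (0.58 ± 0.09). The order of groups was the same for both: each 915 library lay above each vehicle library. Among the 9 calls only that on Mt-nd2 was lost when 1 library was left out, DKD_915 replicate 3.

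The 4 mRNAs without a call in knockdown cells were Mt-nd1 (0.18 ± 0.09), Mt-nd4 (0.03 ± 0.24), Mt-nd4l (0.23 ± 0.10) and Mt-atp8 (-0.04 ± 0.12). For Mt-cytb the 4 groups ranked as scramble with 915, scramble with vehicle, knockdown with 915 and knockdown with vehicle. Its values of 5442, 4680 and 5036 CPM in knockdown cells with 915 met the lower end of scramble cells with vehicle (5405 to 6668 CPM), so those neighbours overlapped, while the others did not.

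Whether the response to 915 differed with the knockdown was tested directly, as the 915 effect in knockdown cells minus that in scramble cells. Of the 13 mRNAs, 0 passed this test, and 1.74% of all genes were called higher and 1.99% lower. No mRNA but Mt-nd4 had a difference beyond -0.16 or 0.06. Mt-nd4 had a difference of -0.76 ± 0.34 (edgeR adjusted p = 0.324), and an unadjusted p under 0.05 was reached by 0 of the 13. The SEs of these differences were 0.10 to 0.16 for the other 12 mRNAs.

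Both rRNAs did pass. AY172581.9 held 1788, 1703 and 1772 CPM in knockdown cells with 915, 870, 774 and 834 CPM in knockdown cells with vehicle, 1534, 1721 and 1552 CPM in scramble cells with 915, and 1005, 1014 and 1022 CPM in scramble cells with vehicle. Its 915 effect was 1.09 ± 0.05 in knockdown cells and 0.66 ± 0.05 in scramble cells, a difference of 0.43 ± 0.08 (edgeR adjusted p = 0.0013). AY172581.24 held 1561, 1490 and 1476 CPM in knockdown cells with 915, 871, 749 and 840 CPM in knockdown cells with vehicle, 1098, 1276 and 1110 CPM in scramble cells with 915, and 941, 948 and 1001 CPM in scramble cells with vehicle. Its 915 effect was 0.88 ± 0.06 in knockdown cells and 0.27 ± 0.06 in scramble cells, a difference of 0.61 ± 0.09 (edgeR adjusted p = 9.76e-05). None of its 4 groups overlapped another.

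The rRNAs had another order of groups than the mRNAs. Per 100 mRNA counts there were 5.71 ± 0.28 rRNA counts in knockdown cells with 915, 3.61 ± 0.14 in knockdown cells with vehicle, 3.60 ± 0.26 in scramble cells with 915 and 3.21 ± 0.25 in scramble cells with vehicle (SD, n = 3 each). Mitochondrial rRNAs carry short tails, and the rat libraries were made from RNA bound to poly-T beads. As a gauge of RNA that such beads should leave behind, histone genes were used, whose main transcripts end without a tail. Of these, 5 gene rows with 3 symbols passed the filter. Hist1h1c stood at 664 to 695 CPM in knockdown cells with 915, 630 to 643 CPM in knockdown cells with vehicle, 522 to 547 CPM in scramble cells with 915 and 579 to 609 CPM in scramble cells with vehicle. Its difference in 915 effect was 0.25 ± 0.06 (edgeR adjusted p = 0.0255), while 0 of the other 4 were called in that test. Those 4 rows stood at only 0.907 to 5.65 CPM, so Hist1h1c may be a poor gauge of RNA without a tail. With 915 in scramble cells 3 of the 5 rows fell and 0 rose (median -0.62). In knockdown cells 1 of 5 fell and 0 rose (median -0.45). Over all genes, 20.6% and 17.6% were called lower. These rows would also move with the levels of the histone genes themselves, and the part of capture in the rRNA result was not tested.

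**Figure D2:**
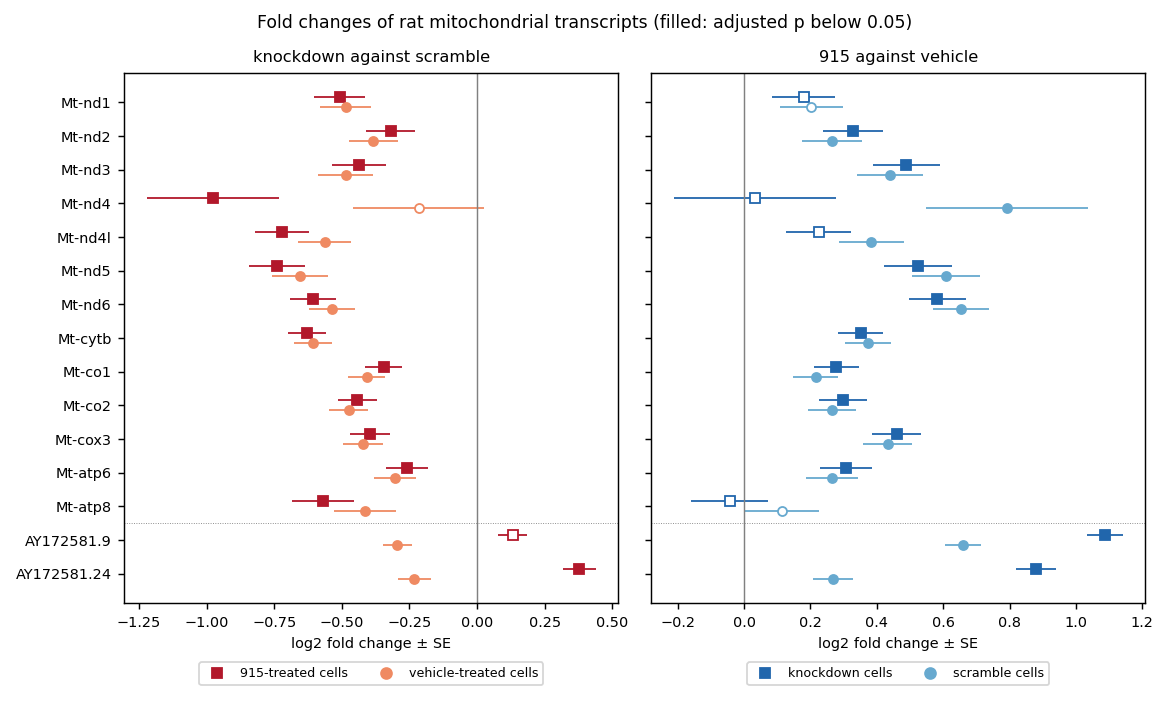
Log2 fold changes ± SE of the 13 mRNAs and, below the dotted line, the 2 rRNAs in rat cells, with knockdown against scramble on the left and 915 against vehicle on the right; filled symbols passed the adjusted p of 0.05. The mRNAs lie left of 0 for knockdown and mostly right of 0 for 915, and the rRNAs have their largest 915 effects, 1.09 and 0.88, in knockdown cells.

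The rat tRNAs were counted at low levels. Of 22 tRNAs 21 had any count, 8 had at most 10 counts over all 12 libraries, and 8 passed the filter. The table names them only by identifier. AY172581.2, AY172581.7, AY172581.18 and AY172581.20 lie on the same strand as Mt-nd6. The libraries were unstranded, so reads of these genes cannot be told from reads antisense to them that come from the other strand. AY172581.2 was the most abundant, with 66.7, 54.5 and 71.8 CPM in knockdown cells with 915, 52.2, 41.6 and 49.3 in knockdown cells with vehicle, 90.1, 74.4 and 103.1 in scramble cells with 915, and 62.9, 60.6 and 75.0 CPM in scramble cells with vehicle. Its group means followed the order of those of Mt-cytb. AY172581.2 fell by 0.47 ± 0.15 on knockdown in 915-treated cells.

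AY172581.18 rose with 915 in both backgrounds, by 0.89 ± 0.20 in knockdown cells and 0.85 ± 0.19 in scramble cells. AY172581.14 moved the other way: it held 0.944, 1.10 and 1.14 CPM in knockdown cells with 915 against 2.06, 2.49 and 2.08 CPM in knockdown cells with vehicle, and fell by 1.05 ± 0.29. In scramble cells it fell by 1.17 ± 0.27 with 915, to 1.45, 1.59 and 1.87 CPM, against 3.76, 3.01 and 4.30 CPM with vehicle. This gene (MT 2665 to 2739) lies between AY172581.24 and Mt-nd1. AY172581.7 rose by 0.63 ± 0.22 with 915 in scramble cells. On knockdown, AY172581.20 fell by 2.06 ± 0.46 in vehicle-treated cells and by 1.20 ± 0.43 in 915-treated cells, and AY172581.7 fell by 1.04 ± 0.23 in 915-treated cells. These calls rest on levels of 0.2 to 11.3 CPM apart from AY172581.2. The vehicle call on AY172581.20 got no adjusted p from DESeq2. In 915-treated cells its call was lost with the replicate block (edgeR adjusted p = 0.0505), with no filter on low counts (edgeR adjusted p = 0.0609) and without DKD_915 replicate 2 or 3 or any 1 S_915 replicate (-1.12 to -1.24), and that on AY172581.2 without DKD_915 replicate 1 or 2 or S_915 replicate 1 or 3 (-0.36 to -0.51). The 915 call on AY172581.7 in scramble cells was lost without S_915 replicate 3, S_Veh replicate 1 or S_Veh replicate 2 (0.52 to 0.66).

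The nuclear genes of the same complexes moved in the direction of the mitochondrial mRNAs in rat cells. Knockdown in vehicle-treated cells lowered 30 of 30 nuclear complex I subunits tested (median -0.60), 8 of 8 of complex III (-0.87), 13 of 15 of complex IV (-0.65) and 15 of 17 of complex V (-0.71), and raised 0. Gene rows that share a symbol were counted separately here. With 915, scramble cells had 26 of 30 (median 0.32), 7 of 8 (0.33), 13 of 15 (0.43) and 12 of 17 (0.43) higher and 0 lower. In knockdown cells 915 raised 20 of 30, 4 of 8, 12 of 15 and 11 of 17. Over all genes, 12.7% were lower on knockdown with vehicle. With 915, 21.5% were higher in scramble cells and 18.1% in knockdown cells.

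Of 9 genes that transcribe the mitochondrial genome, 1 fell on knockdown in vehicle-treated cells: Mrpl12, a mitochondrial ribosomal protein that also binds the mitochondrial RNA polymerase (-0.76). In 915-treated cells 4 of 9 fell, among them Mrpl12 (-0.67), Tfb2m, the initiation factor (-0.37), and Polrmt, the polymerase itself (-0.30). With 915, 5 of 9 rose in scramble cells, Tefm, an elongation factor, by 0.55, Polrmt by 0.45 and Mrpl12 by 0.44. In knockdown cells 2 of 9 rose, Mrpl12 by 0.52 and Polrmt by 0.31. The 1 of 9 stands beside 12.7% of all genes called lower, the 4 of 9 beside 17.7%, the 5 of 9 beside 21.5% called higher and the 2 of 9 beside 18.1%.

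For DNA upkeep, 1 of 14 genes rose and 0 fell on knockdown in vehicle-treated cells, where 7.75% of all genes were called higher. In 915-treated cells 5 of 14 fell and 0 rose on knockdown, beside 17.7% of all genes called lower. Among them were Tfam, which packages mitochondrial DNA (-0.30), Ssbp1, which binds its single strands (-0.46), and Rrm2b, a subunit of ribonucleotide reductase (-0.54). With 915, 7 of 14 rose and 0 fell in scramble cells (21.5% of all genes called higher), and 2 rose and 1 fell in knockdown cells (18.1% higher and 17.6% lower).

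Of 19 genes of mitochondrial RNA processing and stability, 4 fell on knockdown with vehicle. Lrpprc, which stabilises mitochondrial mRNAs, fell by 0.65, Fastk by 0.50 and Grsf1, an RNA-granule protein, by 0.39. In 915-treated cells 8 of 19 fell and 0 rose on knockdown, among them Lrpprc (-0.98), Grsf1 (-0.72) and Fastk (-0.47). With 915, 12 of 19 rose and 2 fell in scramble cells, and 5 rose and 2 fell in knockdown cells. Beside the falls with 915 stand 20.6% and 17.6% of all genes called lower. In the test of the difference in 915 effect 3 of 19 were lower and 0 higher, namely Mrm1, which methylates mitochondrial rRNA (-0.51), Lrpprc (-0.34) and Grsf1 (-0.32). Over all genes, 12.7% were lower on knockdown with vehicle, 17.7% were lower on knockdown with 915, 21.5% were higher with 915 in scramble cells, 18.1% were higher with 915 in knockdown cells, and 1.99% were lower in the test of the difference.

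Some markers of cell types were called in the same contrasts. Of 11 cardiomyocyte markers 9 fell on knockdown with vehicle, and their summed level was 12328 to 12819 CPM in knockdown cells against 20810 to 23067 CPM in scramble cells. In 915-treated cells 11 of 11 fell on knockdown, with sums of 9914 to 12625 CPM in knockdown cells against 27446 to 28577 CPM in scramble cells. With 915 in scramble cells 4 of 11 rose and 1 fell, with sums of 27446 to 28577 CPM in 915-treated cells against 20810 to 23067 CPM in vehicle-treated cells. With 915 in knockdown cells 1 of 11 rose and 3 fell (median -0.11). Their sums were 9914 to 12625 CPM in 915-treated cells against 12328 to 12819 CPM in vehicle-treated cells. Over all genes, 12.7% were lower and 7.75% higher on knockdown with vehicle, and 17.7% lower and 16.2% higher on knockdown with 915. With 915, 20.6% were lower and 21.5% higher in scramble cells, and 17.6% lower and 18.1% higher in knockdown cells.

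Of 12 fibroblast markers 1 rose and 0 fell on knockdown with vehicle, and 6 rose and 0 fell on knockdown in 915-treated cells. With 915 in scramble cells 8 fell and 1 rose, with sums of 7722 to 8493 CPM in 915-treated cells against 13940 to 15004 CPM in vehicle-treated cells. In knockdown cells 5 fell and 2 rose with 915, with sums of 9028 to 11428 CPM in 915-treated cells against 13357 to 14780 CPM in vehicle-treated cells. Of 9 gene rows for smooth muscle markers 1 rose and 1 fell on knockdown with vehicle, where 12.7% of all genes were called lower. On knockdown in 915-treated cells 5 rose and 0 fell. With 915, 7 of the 9 fell in both backgrounds, and 0 rose in scramble cells and 1 in knockdown cells. In scramble cells their sum was 2037 to 2473 CPM with 915 against 5215 to 5520 CPM with vehicle. Over all genes, 7.75% were higher on knockdown with vehicle and 16.2% on knockdown with 915. With 915, 20.6% were lower and 21.5% higher in scramble cells, and 17.6% lower and 18.1% higher in knockdown cells.

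Endothelial and leukocyte markers each summed to 33 to 98 CPM in every library. Cldn5 was at 0 in all 12 and Adgre1 did not pass 0.157 CPM, while Lyz2 held 8.51 to 43.5 CPM. On knockdown with vehicle 2 of 6 endothelial and 3 of 7 leukocyte markers rose, and with 915 3 of 6 and 5 of 7, and 0 fell. With 915, 1 of 6 and 1 of 7 rose in scramble cells and 0 fell. In knockdown cells 4 of 6 rose and 1 fell, and 2 of 7 rose and 0 fell. Over all genes, 7.75% were higher on knockdown with vehicle, 16.2% on knockdown with 915, 21.5% with 915 in scramble cells and 18.1% in knockdown cells (17.6% lower). In bulk RNA, fewer cells of a type and less RNA per cell cannot be told apart, and the part of cell composition in the mitochondrial results was not tested.

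In the mouse tables the nuclear copies took 11.2% to 20.2% of the counts assigned to mitochondrial mRNAs and copies together. For mt-Co2 the split turned over in 2 libraries: Gm28661 held 147 CPM in TAC with 332 replicate 5 and 35.5 CPM in TAC with vehicle replicate 5, against 15517 to 26173 CPM in 15 of the other 16 libraries and 8295 CPM in TAC with 332 replicate 3. mt-Co2 itself was then high in the same libraries, at 38925 and 27834 CPM. The sum of gene and copy was 39085 CPM in TAC with 332 replicate 5 and 27823 CPM in TAC with vehicle replicate 5, within 27823 to 48419 CPM over all 18. mt-Nd3 alone held 425 to 999 CPM and with its copy 2856 to 5432 CPM, so most of its reads had been placed on the copy.

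**Figure D3:**
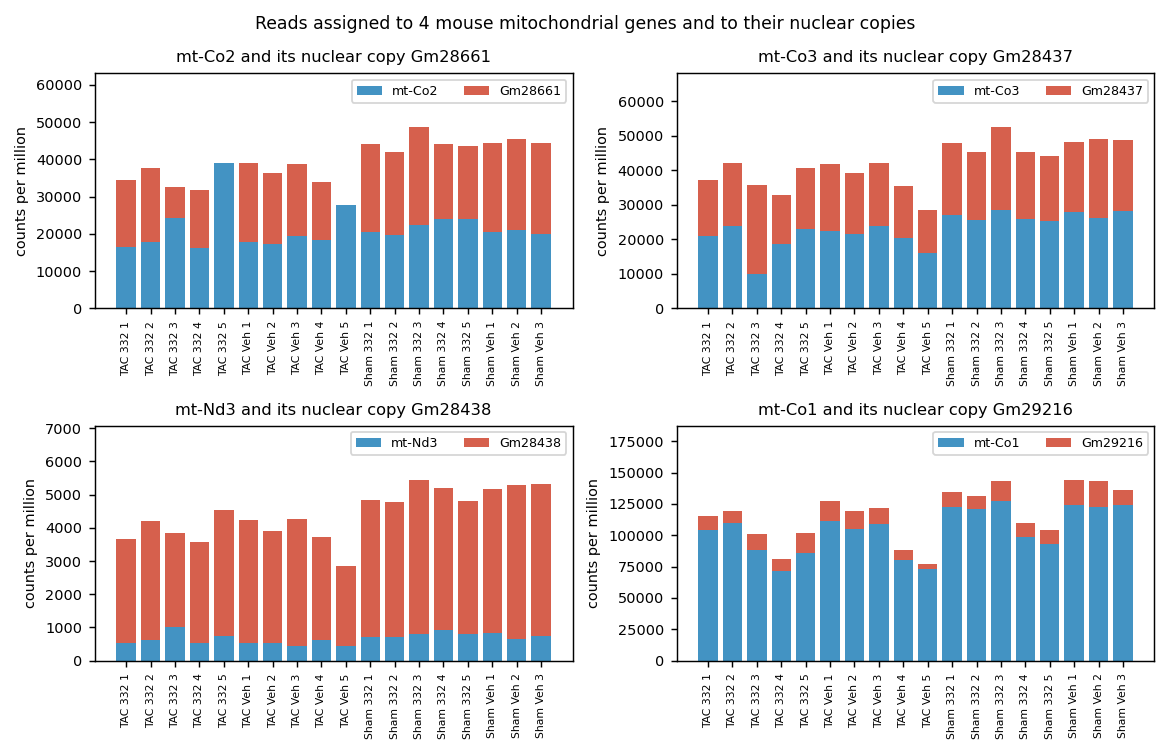
Levels (CPM) placed on 4 mouse mitochondrial genes (blue) and on their chromosome 1 copies (red), stacked, for all 18 libraries. The share given to Gm28661 drops to nearly nothing in TAC 332 5 and TAC Veh 5 (147 and 35.5 CPM), while the height of the stack stays between 27823 and 48419 CPM.

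The mouse libraries also differed by sequencing lane, which the names of the deposited files give. Replicates 4 and 5 were on lane 1 and replicates 1 to 3 on lanes 3 and 4, and sham with vehicle had no library on lane 1. In the 3 groups with both, mt-Nd5 averaged 9014 ± 1871 CPM on lane 1 (SD, n = 6) and 25220 ± 4387 CPM on lanes 3 and 4 (SD, n = 9), without overlap. mt-Atp8 averaged 2293 ± 348 CPM on lane 1 and 5651 ± 1154 CPM on lanes 3 and 4, and mt-Nd4 averaged 21742 ± 3225 CPM on lane 1 and 36787 ± 5304 CPM on lanes 3 and 4. mt-Nd6, at 205 ± 16.3 CPM on lane 1 and 186 ± 43.7 CPM on lanes 3 and 4, overlapped between the lane sets, as did mt-Rnr1, at 1584 ± 382 CPM on lane 1 and 1721 ± 366 CPM on lanes 3 and 4. The fits therefore carried a term for the lane set, and values from separate fits within a lane set are given for the members described. Sham with 332 replicates 1 to 3 were on lane 3 and the other replicates 1 to 3 on lane 4, so within lanes 3 and 4 the comparisons that use sham with 332 cannot be told apart from lane.

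TAC lowered part of the mitochondrial mRNAs in vehicle-treated hearts. As deposited, 4 of 13 mRNAs fell, 0 rose, and 0 of 2 rRNAs were called, where 12.8% of all genes were called lower and 13.5% higher. With the copies added, 7 of 13 fell, against 12.9% of all genes: 3 of 7 of complex I, the 1 of complex III, 3 of 3 of complex IV and 0 of 2 of complex V. The 4 called as deposited were among these 7.

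mt-Nd1, a membrane subunit of complex I, held 27130, 24422, 27530, 16461 and 12760 CPM in TAC hearts with vehicle, against 31302, 31984 and 30977 CPM in sham hearts with vehicle. All 5 TAC libraries lay below the 3 sham libraries, as did the 3 on lane 4 taken alone (-0.33 ± 0.11, edgeR adjusted p = 0.0322). TAC replicates 4 and 5 were on lane 1, where this sham group had no library, so their lower levels cannot be told apart from lane. In the 3 groups with both lane sets, mt-Nd1 averaged 17694 ± 3810 CPM on lane 1 (SD, n = 6) and 27963 ± 4656 CPM on lanes 3 and 4 (SD, n = 9). mt-Cytb held 39201, 39008, 41063, 28888 and 23054 CPM in TAC hearts against 48642, 46455 and 45291 CPM in sham hearts (-0.29 ± 0.10, edgeR adjusted p = 0.0375). Its groups did not overlap either, with the same limit from lane. By lane set it averaged 29468 ± 4601 CPM on lane 1 and 40901 ± 5399 CPM on lanes 3 and 4. Between the 3 TAC and the 3 sham libraries on lane 4, the log2 fold changes were -0.24 ± 0.09 for mt-Nd1 and -0.23 ± 0.09 for mt-Cytb, with edgeR adjusted p-values of 0.0541 and 0.0691.

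mt-Nd6 held 180, 191, 195, 203 and 195 CPM in TAC hearts against 229, 266 and 214 CPM in sham hearts (-0.36 ± 0.13, edgeR adjusted p = 0.0494, and -0.31 ± 0.10 on lane 4), a call that was lost when any 1 of these 8 libraries was left out. The kit used for the mouse libraries does not mark strand either. mt-Nd3 with its copy held 4232, 3917, 4281, 3711 and 2856 CPM in TAC hearts against 5184, 5318 and 5343 CPM in sham hearts, so all TAC libraries were lower. It fell by 0.44 ± 0.11, the most of the 13 mRNAs with copies added, and passed the test when any 1 of the 8 libraries was left out. mt-Co3 with its copy held 41922, 39198, 42306, 35435 and 28491 CPM in TAC hearts against 48250, 49314 and 48781 CPM in sham hearts, and fell by 0.32 ± 0.10. mt-Co2 with its copy fell by 0.31 ± 0.10 and mt-Co1 by 0.27 ± 0.10. On lane 4 alone, with copies added, the values were -0.34 ± 0.08 for mt-Nd3, -0.24 ± 0.08 for mt-Co3, -0.22 ± 0.08 for mt-Co2 and -0.19 ± 0.08 for mt-Co1, and of these mt-Co1 was not called (edgeR adjusted p = 0.0783).

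These counts depended on single libraries. As deposited, 0 mRNAs were called without Sham_Veh replicate 1, without Sham_Veh replicate 3 or without TAC_Veh replicate 2, 1 without Sham_Veh replicate 2, 2 without TAC_Veh replicate 1, 3 or 5, and 3 without TAC_Veh replicate 4. With copies added the count was 1 without Sham_Veh replicate 2, 2 without Sham_Veh replicate 3, 3 without Sham_Veh replicate 1, 4 without TAC_Veh replicate 2, and 5 or 6 without any other library. On lanes 3 and 4 alone it was 1 as deposited (mt-Nd6) and 6 with copies added. With the lane term left out, 1 was called as deposited (mt-Nd3).

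The 2 rRNAs did not pass in vehicle-treated hearts. mt-Rnr1, the small-subunit rRNA, held 1944, 1495, 1365, 1489 and 1338 CPM in TAC hearts against 2159, 2097 and 1985 CPM in sham hearts (-0.40 ± 0.16, edgeR adjusted p = 0.0823, and -0.37 ± 0.16 on lane 4), and was called without TAC_Veh replicate 1. mt-Rnr2, the large-subunit rRNA, held 6000, 4752, 4564, 3269 and 3473 CPM in TAC hearts against 4787, 5010 and 4616 CPM in sham hearts (0.08 ± 0.17), and its groups overlapped.

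**Figure D4:**
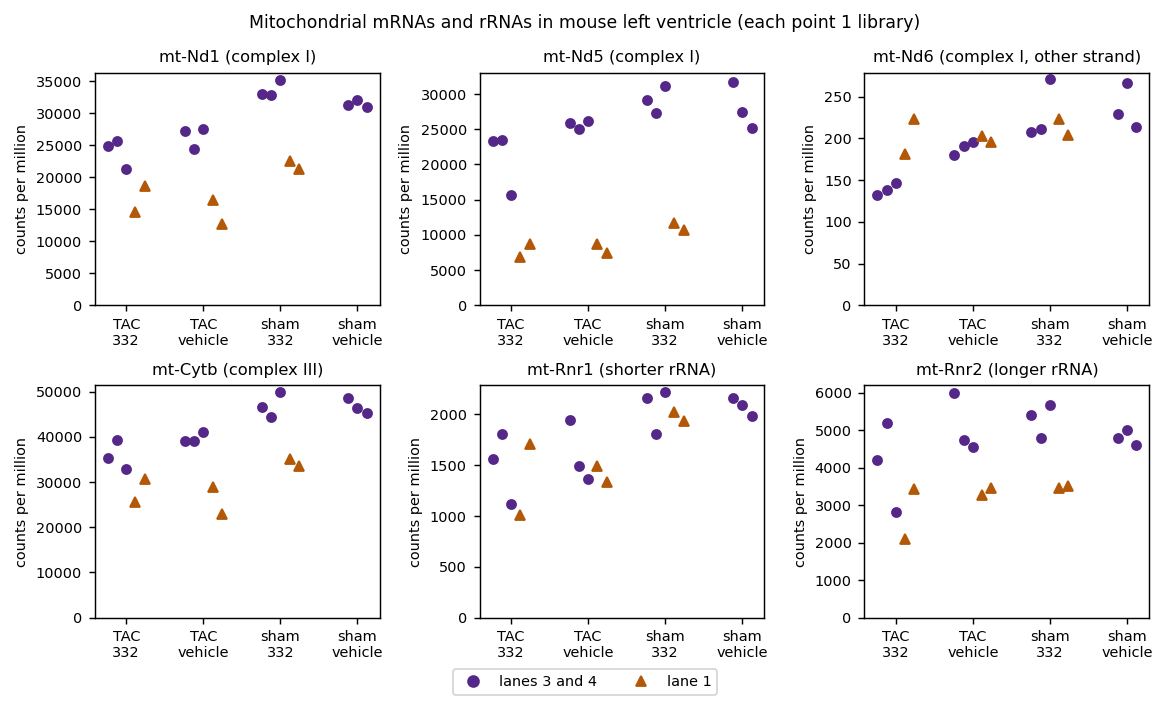
Levels of 4 mRNAs and the 2 rRNAs in mouse left ventricle, in CPM on axes that start at 0; each point is 1 library, circles for lanes 3 and 4 and triangles for lane 1. mt-Nd5 separates by lane (9014 against 25220 CPM on average), mt-Nd6 does not, and within each lane set mt-Nd1 is lower in TAC than in sham hearts.

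Mitochondrial transcripts were also lower in TAC than in sham hearts among the 332-treated. Replicates 1 to 3 were on lane 3 in the sham group and on lane 4 in the TAC group. In these replicates TAC therefore cannot be told apart from lane. As deposited, 9 of 13 mRNAs and mt-Rnr1 fell and 0 rose, where 12.1% of all genes were called lower and 11.8% higher. With copies added 11 of 13 mRNAs and mt-Rnr1 fell, against 11.8% of all genes. The exceptions were mt-Atp8 (-0.34 ± 0.15) and mt-Nd4l (-0.33 ± 0.12). Whether TAC acted differently with 332 than with vehicle is the same test as whether 332 acted differently after TAC, which is given below.

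mt-Nd1 held 24801, 25671, 21235, 14554 and 18618 CPM in TAC hearts with 332, against 32953, 32817, 35104, 22546 and 21224 CPM in sham hearts with 332. Within each lane set the TAC libraries were the lower ones (-0.45 ± 0.09, edgeR adjusted p = 0.00123). mt-Nd5 held 23311, 23462, 15643, 6872 and 8651 CPM in TAC hearts against 29175, 27257, 31080, 11719 and 10713 CPM in sham hearts, with the same order within each lane set (-0.51 ± 0.11, edgeR adjusted p = 0.00178). The separate values were -0.48 ± 0.13 on lanes 3 and 4 and -0.53 ± 0.19 on lane 1. mt-Cytb fell by 0.35 ± 0.08, with -0.38 ± 0.09 on lanes 3 and 4 and -0.28 ± 0.21 on lane 1. mt-Nd4l, as deposited, fell by 0.40 ± 0.10, with -0.30 ± 0.11 on lanes 3 and 4 and -0.54 ± 0.15 on lane 1; it was called in neither lane set.

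mt-Nd6 held 132, 138, 146, 181 and 223 CPM in TAC hearts with 332 against 207, 211, 271, 224 and 204 CPM in sham hearts with 332 (-0.46 ± 0.11, edgeR adjusted p = 0.00557). Its difference lay in lanes 3 and 4 (-0.72 ± 0.10), where the sham libraries were on lane 3 and the TAC libraries on lane 4. On lane 1 it was -0.07 ± 0.12 (edgeR adjusted p = 0.795), and there the groups overlapped. For mt-Nd1 the values were -0.48 ± 0.09 on lanes 3 and 4 and -0.40 ± 0.21 on lane 1, where 2 libraries stood against 2 and 0 members were called. mt-Rnr1 held 1563, 1809, 1122, 1013 and 1705 CPM in TAC hearts against 2160, 1807, 2224, 2022 and 1939 CPM in sham hearts, and fell by 0.50 ± 0.14 (edgeR adjusted p = 0.0145). It was called in neither lane set alone, with -0.45 ± 0.16 on lanes 3 and 4 and -0.54 ± 0.23 on lane 1. mt-Rnr2 had a value of -0.36 ± 0.14 (edgeR adjusted p = 0.0693) and passed without TAC_332 replicate 2 or 5 (-0.47 each). With no lane term 2 members were called, mt-Nd6 and mt-Rnr1.

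No mitochondrial mRNA or rRNA was called for 332 itself. In TAC hearts, 332 against vehicle, 0 of 13 mRNAs and 0 of 2 rRNAs passed edgeR's test, as deposited or with copies added, where 0.135% of all genes were called higher and 0.292% lower. At an unadjusted p under 0.05 there were 2 mRNAs and 1 rRNA. mt-Nd3 had the smallest p-value, with 528, 611, 999, 534 and 726 CPM in TAC hearts with 332 against 530, 522, 425, 628 and 454 CPM in TAC hearts with vehicle (0.41 ± 0.16, edgeR adjusted p = 0.289). With its copy added the value was 0.07 ± 0.09, or -0.08 ± 0.08 on lane 4 and 0.30 ± 0.18 on lane 1. mt-Nd6 had -0.25 ± 0.11 and mt-Rnr2 -0.31 ± 0.14 (edgeR adjusted p = 0.361 for both). On lane 4 the values were -0.44 ± 0.10 for mt-Nd6 and -0.33 ± 0.18 for mt-Rnr2, and on lane 1 they were 0.02 ± 0.12 and -0.29 ± 0.22, with 0 members called in either.

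In sham hearts, 332 against vehicle, 0 of 15 were called, 0 reached an unadjusted p under 0.05, and 0.00712% of all genes were called higher and 0% lower. The smallest p-value was that of mt-Nd4l (0.16 ± 0.12, unadjusted p = 0.17 in edgeR). mt-Nd6 stood at -0.15 ± 0.13 and mt-Rnr2 at 0.13 ± 0.17. For the difference between the 332 effects in TAC and sham hearts 0 of 15 were called, against 0.0214% of all genes higher and 0.0427% lower. mt-Rnr2 had -0.44 ± 0.22 (edgeR adjusted p = 0.517), the smallest p-value, and mt-Nd6 -0.10 ± 0.17. The SEs of the 332 effects were 0.08 to 0.18 in TAC hearts and 0.10 to 0.21 in sham hearts, beside TAC effects of up to 0.57 in size.

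**Figure D5:**
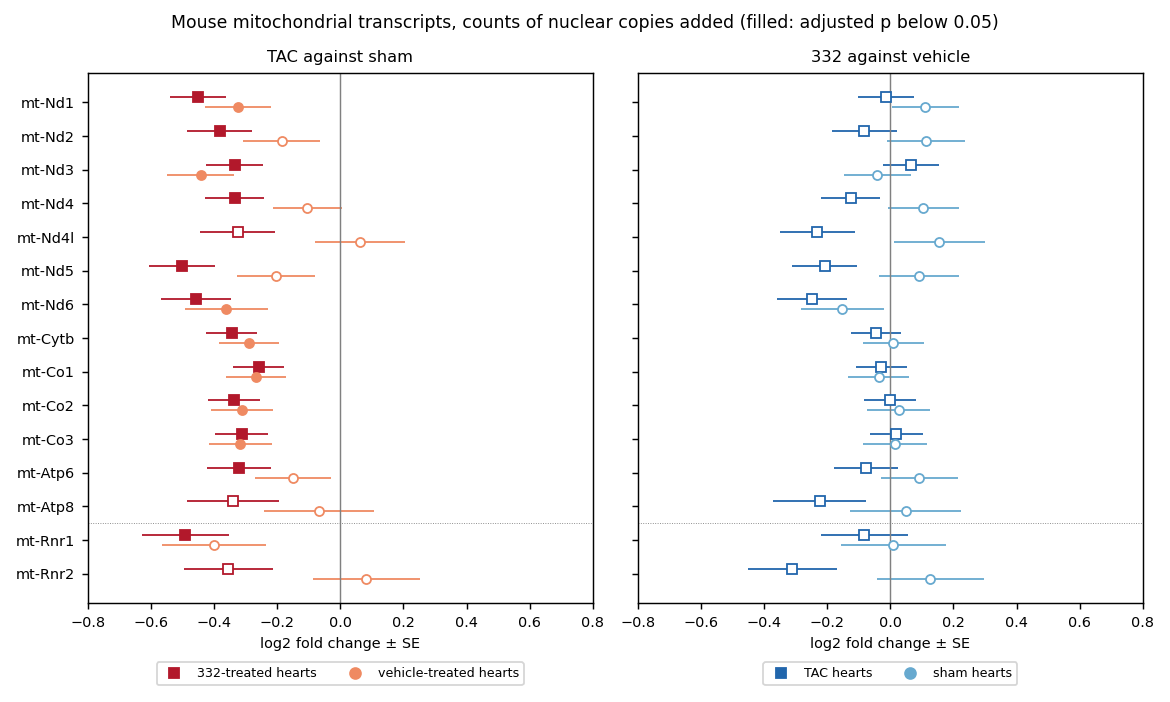
Log2 fold changes ± SE in mouse hearts with the counts of the nuclear copies added to their genes, TAC against sham on the left and 332 against vehicle on the right; filled symbols passed the adjusted p of 0.05. On the left 11 mRNAs and mt-Rnr1 are filled in 332-treated hearts and 7 mRNAs in vehicle-treated hearts; on the right 0 are filled.

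The mouse tRNAs could not be compared. Of 22, 6 had any count, 34 counts in all over the 18 libraries, and none passed the filter. The counting program had assigned them an effective length of 2 bases, against 68 annotated bases for mt-Tf, for example.

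Nuclear subunits of the same complexes were lower after TAC in mouse hearts as well. With vehicle, 31 of 36 complex I genes (median -0.37), 9 of 9 of complex III (-0.32), 12 of 14 of complex IV (-0.43) and 13 of 16 of complex V (-0.41) fell and 0 rose. With 332, 24 of 36, 7 of 9, 9 of 14 and 11 of 16 fell, with medians of -0.24 for complex I, -0.30 for complex IV and -0.34 for complex V. Of 9 genes that transcribe the mitochondrial genome 0 were called after TAC with either treatment. For DNA upkeep, 1 of 14 genes rose and 1 fell after TAC with vehicle, beside 13.5% of all genes higher and 12.8% lower. With 332, 0 of 14 rose and 4 fell, beside 11.8% higher and 12.1% lower. Of 25 RNA processing genes 1 rose and 3 fell after TAC with vehicle, where 13.5% of all genes were called higher and 12.8% lower. With 332, 2 rose and 3 fell, beside 11.8% higher and 12.1% lower. In TAC hearts 332 raised 1 of 25 RNA processing genes, Mrm1 (0.41), beside 0.135% of all genes, and of the nuclear subunits 0 were called.

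Of 12 cardiomyocyte markers 3 rose and 6 fell after TAC with vehicle, with sums of 60764 to 73353 CPM in TAC hearts against 71912 to 75930 CPM in sham hearts. Of 12 fibroblast markers 8 rose, with sums of 1284 to 2240 CPM in TAC hearts against 618 to 711 CPM in sham hearts. With 332, 7 of 12 cardiomyocyte markers fell and 2 rose, with sums of 58720 to 79183 CPM in TAC hearts against 75011 to 90046 CPM in sham hearts, and 7 of 12 fibroblast markers rose, with sums of 945 to 2661 CPM in TAC hearts against 636 to 728 CPM in sham hearts. Over all genes, 13.5% were higher and 12.8% lower after TAC with vehicle, and 11.8% higher and 12.1% lower after TAC with 332. No marker of the 5 lists was at 0 in all mouse libraries. Their part in the mitochondrial values was not tested.

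For the mRNAs and rRNAs, the authors' deposited table of rat comparisons gave nearly the same calls. On knockdown with vehicle, 12 mRNAs and 2 rRNAs were lower in the authors' deposited table, and those 12 mRNAs were the 12 called here. For 915 the authors' deposited table had 12 mRNAs higher in scramble cells, 11 of them called here, and 10 in knockdown cells, 9 of them called here. The tRNA calls differed more. On knockdown with vehicle 2 tRNAs were lower in the authors' deposited table, 1 of them called here. With 915 in scramble cells 3 were higher and 1 lower, and all 4 were called here. With 915 in knockdown cells 2 were higher and 0 lower, and 1 was called here. The fall of AY172581.14 in knockdown cells was not called by the authors. No member called in both had the opposite sign.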

How the data were processed

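The authors deposited a table of rat read counts per gene (genome build rn6). The submitters' processing notes name featureCounts 1.5.0-p3, HISAT2 2.0.5, DESeq2 1.20.0 and StringTie 1.3.3b for it. The log2 fold changes and p-values in that table are the authors' own comparisons. For each mouse library the authors deposited estimated counts per transcript, and the submitters' processing notes name fastp, Salmon and DESeq2; the mouse build is not given in the sources used here, and 97.4% of the 140790 transcript identifiers were in GENCODE M21, whose sequences and GRCm38 positions are printed. Estimated counts were summed per gene and rounded (7.61% of values were not whole). Counts were filtered (filterByExpr, minimum count 10), scaled by TMM and fitted with edgeR 4.0.16 (robust quasi-likelihood, R 4.3.3), 4 groups together per species, with the lane set as a term in mouse. p-values were adjusted over all genes. DESeq2 1.42.0 was an alternative, beside other scalings and filters, left-out libraries, the replicate block and lane sets. Replicate correlations were computed in R on deviations of log CPM from group means, taken within lane sets in mouse. Sequences were read and compared with Python 3.11.15, pandas 2.3.3 and blastn 2.17.0; copies had at least 95% identity over 100 bases and 1000 counts in 1 library. The scripts were tested on simulated data. The members and lists were chosen with earlier results of these data known. Genes were named by rule: in each comparison up to 6 called mRNAs and rRNAs and up to 3 called tRNAs by smallest adjusted p, Nd6 and Rnr2 always, the smallest p where none was called, and up to 3 called genes per nuclear list. Members outside the rule, and exceptions to a count, were named after their values were seen. No 2 libraries held identical counts. Total counts per library set the precision, and SEs cover the spread between libraries.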

Additional observations from a re-analysis of the deposited data

Results flagged for a closer look

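AY172581.9 and AY172581.24, the rat rRNAs, responded to 915 by different amounts in knockdown and scramble cells. The differences, knockdown minus scramble, were 0.43 ± 0.08 and 0.61 ± 0.09 on the log2 scale (edgeR adjusted p = 0.0013 and 9.76e-05), and both passed when any 1 of the 12 libraries was left out, with values of 0.39 to 0.48 for AY172581.9 and 0.56 to 0.68 for AY172581.24.

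Values of 2 mouse genes stood apart within the 5 TAC hearts with vehicle by the gap to their nearest neighbour. mt-Rnr1 was at 1944 CPM in replicate 1, where the group ran from 1338 to 1944 CPM. mt-Co2 was at 27834 CPM in replicate 5, where the group ran from 17291 to 27834 CPM, and in that library the copy Gm28661 held 35.5 CPM. Of 75 groups examined 2 had such a library, and chance alone gives about 1 in 20.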

How the results depend on the processing

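The 12 rat and 18 mouse libraries, in groups of 3 to 5, limit what small differences can be seen. In mouse, 1 group lacked a lane set, and replicates 1 to 3 of sham with 332 were alone on lane 3. Some mouse reads also cannot be placed between genes and nuclear copies. Such copies were not searched for in rat, so whether the rat counts carry the same limit was not tested. Of the counts and shares recomputed under alternatives 470 stayed within 1.5 times of, or less than 1 SD from, the value given, and 24 did not. Counts of 0 that stayed at 0, as for 332 in sham hearts, are among the 470. On knockdown with 915, the count of members called higher was 1, and 2 with RLE size factors, with a minimum count of 50, with DESeq2 and, leaving out 1 library, at most (range 1 to 2); the second was AY172581.9. For TAC with vehicle the count called lower was 4. It was 0 with the replicate block, 1 with no lane term, 1 on lanes 3 and 4 only, 7 with nuclear copies added and 7 with these and scaling from nuclear genes. Leaving out 1 library gave 0 to 3, or 1 to 7 with copies added. For TAC with 332 the count called lower was 10; it was 2 with no lane term, 0 on lane 1 only and 0 on lane 1 only with copies added, and 9 to 13, or 10 to 14 with copies added, leaving out 1 library. With no filter on low counts, 332 in TAC hearts had 1 member called higher (mt-Nd3) and 2 lower (mt-Rnr2 and mt-Nd6), and its difference from sham 1 lower (mt-Rnr2).

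Replicate numbers did not pair the samples: same-numbered libraries of different groups had deviations that correlated at -0.0529 to 0.0401 in rat (18 pairs) and -0.273 to 0.0758 in mouse (24 pairs). The replicate block changed no other count of mRNAs and rRNAs by over 1.5 times.

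Of the values for members named by rule 13 changed sign, all of them uncalled, and the cause was not tested. Other uncalled members changed sign too when 1 library was left out, for example Mt-nd4 with 915 in knockdown cells (-0.20 to 0.23). Beside a value of 0.08, mt-Rnr2 after TAC with vehicle was -0.12 with no lane term and, leaving out 1 library, -0.0064 to 0.12, with -0.0064 without TAC_Veh replicate 1 and -0.0035 with copies added and that library left out. mt-Nd3 under 332 in TAC hearts, with copies added, was -0.085 on lanes 3 and 4 only, -0.010 without TAC_332 replicate 5 and -0.025 without TAC_Veh replicate 5. mt-Nd6 under 332 in TAC hearts was 0.019 on lane 1 only, with or without copies added. Under 332 in sham hearts with no lane term mt-Nd4l was -0.028 and mt-Rnr2 -0.073. In the difference of 332 effects mt-Nd5 was 0.099 with no lane term, and mt-Nd6 ran from -0.25 to 0.030 leaving out 1 library, with 0.030 without Sham_332 replicate 3, with or without copies added.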

Other observations

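In rat cells the counts of Mt-nd6 per 100 counts of the other mRNAs were 1.12 in knockdown cells with 915, 0.936 in knockdown cells with vehicle, 1.28 in scramble cells with 915 and 1.00 in scramble cells with vehicle (means, n = 3 each). In mouse hearts the counts of the nuclear copies were included with the other mRNAs, and the ratio ran from 0.034 to 0.085 over the 18 libraries. It was 0.060 to 0.085 on lane 1 and 0.034 to 0.057 on lanes 3 and 4. The mouse tables gave mt-Nd6 an effective length of 4600 to 8247 bases for a gene of 519 bases.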
